A study of Mus musculus with 18 samples.

Results

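The 37 genes described here are genes of thymocytes, the developing T cells of the thymus, read in RNA from sorted medullary thymic epithelial cells (mTECs). They were taken by symbol from the deposited gene tables. All 37 were among the 49585 genes listed in the Aire and Fezf2 tables, and 36 were among the 21969 of the Chd4 table, which does not list Trbc2. Total exon reads per library were compared between each knockout and its own control. Within the 37, a core of 11 genes served as a ruler for the level of thymocyte transcripts in a library. The core genes encode parts of the T cell receptor, a coreceptor, the signalling chain and the recombination machinery. They are Cd3d, Cd3e, Cd3g, Cd8b1, Lck, Lat, Rag1, Rag2, Dntt, Ptcra and Themis. Each other gene was read against that ruler.

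The 18 libraries form 6 groups of 3. The libraries labelled Aire KO and their wild-type group, called here the WT for Aire, came from C57BL/6 mice. So did the Fezf2 KO libraries and a separate wild-type group, the WT for Fezf2. The column headers call the Fezf2 KO libraries Fezf2cKO, so labels and headers differ on whether that knockout was conditional. The Chd4 groups were of strain C57BL/6x129P2 and both carried floxed Chd4 alleles (flox/flox), to which the conditional knockout (cKO) added Foxn1-Cre, a recombinase driven by the promoter of a thymic epithelial transcription factor. The deleted parts of Aire and Fezf2 and the promoter of any Cre in the Fezf2 line are not stated in the sources used. The labels give neither the age of the mice nor whether the 3 libraries of a group came from separate mice, so p-values measure the spread between libraries, which may be technical. Libraries are named A, B and C in barcode order, which pairs nothing across groups. Values are exon reads scaled to a common library size by TMM (CPM), for the 12 Aire and Fezf2 libraries together and for the 6 Chd4 libraries on their own.

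As background, mTECs display proteins of many tissues to thymocytes, which move through the medulla in close contact with them. An immature thymocyte rearranges its antigen receptor genes with the recombinase of Rag1 and Rag2, while Dntt adds bases at the joints. The receptor chains are carried to the surface with the CD3 proteins and the zeta chain (Cd247). The coreceptors CD4 and CD8 bring the kinase Lck to the receptor, Lck and Zap70 phosphorylate its tails, and Lat gathers the proteins that pass the signal on. Tcf7, Lef1, Gata3, Bcl11b, Satb1, Ikzf1 and Ets1 are transcription factors of the T lineage, several of which also act in other cells.

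The promoters of the genes that the results turn on are shown as the 250 bases before the start given by RefSeq on GRCm38.p6, 5′ to 3′ on the strand of the gene. Cd3g and Cd3d lie back to back with 1354 bases between them and Cd5 has Cd6 as its neighbour, while Lck has a separate start for each of its promoters and Dntt is the recombination gene with the most reads. Capitals mark matches on either strand to letters that factors of the T lineage are known to prefer, which are spelled out with their shares after the sequences.
Cd3d (chr9:44981536-44981785, plus strand): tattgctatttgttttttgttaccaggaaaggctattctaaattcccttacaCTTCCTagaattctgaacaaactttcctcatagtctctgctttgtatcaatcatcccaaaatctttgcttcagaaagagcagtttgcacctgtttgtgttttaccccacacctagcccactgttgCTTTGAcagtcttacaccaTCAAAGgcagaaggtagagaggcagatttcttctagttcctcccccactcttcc
Cd3g (chr9:44980432-44980681, minus strand): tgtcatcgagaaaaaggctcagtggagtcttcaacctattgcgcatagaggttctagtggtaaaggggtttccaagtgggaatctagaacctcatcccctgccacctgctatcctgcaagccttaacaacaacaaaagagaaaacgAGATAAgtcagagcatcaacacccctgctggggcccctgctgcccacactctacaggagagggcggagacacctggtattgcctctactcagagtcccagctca
Lck, upstream start (chr4:129573642-129573891, minus strand): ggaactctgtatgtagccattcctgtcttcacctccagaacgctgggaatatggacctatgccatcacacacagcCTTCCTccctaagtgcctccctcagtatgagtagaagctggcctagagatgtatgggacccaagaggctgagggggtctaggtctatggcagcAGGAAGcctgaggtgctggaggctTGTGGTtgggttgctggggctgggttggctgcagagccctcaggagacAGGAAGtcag
Lck, downstream start (chr4:129558373-129558622, minus strand): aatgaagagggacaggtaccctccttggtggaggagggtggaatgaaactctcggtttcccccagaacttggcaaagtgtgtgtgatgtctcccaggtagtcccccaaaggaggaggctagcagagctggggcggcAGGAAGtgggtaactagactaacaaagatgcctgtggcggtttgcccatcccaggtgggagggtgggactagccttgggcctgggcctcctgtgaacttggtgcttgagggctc
Dntt (chr19:41029025-41029274, plus strand): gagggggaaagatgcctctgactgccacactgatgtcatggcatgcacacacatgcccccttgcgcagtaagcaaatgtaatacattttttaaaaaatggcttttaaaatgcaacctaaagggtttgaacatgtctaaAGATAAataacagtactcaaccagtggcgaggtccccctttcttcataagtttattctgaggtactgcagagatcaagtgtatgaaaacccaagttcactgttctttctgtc
Cd5 (chr19:10738975-10739224, minus strand): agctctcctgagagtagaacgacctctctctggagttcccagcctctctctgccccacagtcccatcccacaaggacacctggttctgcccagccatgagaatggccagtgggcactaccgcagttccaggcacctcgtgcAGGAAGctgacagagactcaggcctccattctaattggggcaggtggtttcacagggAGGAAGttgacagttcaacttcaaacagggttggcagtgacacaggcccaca
A promoter in the RefSeq table was found for 26 of the 37 genes, at 50 starts in all. The letters searched for Ets factors, AGGAAG, stood in 6 of 12 core promoters (50%), in 14 of 38 promoters of the other genes (36.8%) and in 29.5% of all 32851 promoters of that length. For Runx factors the letters were TGTGGT, and they stood in 2 of 12 (16.7%), 5 of 38 (13.2%) and 14.0% of all. For Tcf7 and Lef1 they were CTTTGA, found in 1 of 12 (8.33%), 8 of 38 (21.1%) and 13.8% of all. For Gata factors they were AGATAA, found in 2 of 12 (16.7%), 2 of 38 (5.26%) and 9.99% of all. Starts of a gene can overlap and share a site, as among the 9 starts of Arpp21. Counted once per gene, Ets letters stood in 5 of 10 core genes and 10 of 16 others, Runx letters in 2 and 3, Tcf7 and Lef1 letters in 1 and 6, and Gata letters in 2 and 2. These are matches of letters in a window, and matches to different motifs may overlap. Whether any of them is bound was not measured here.

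Exon reads per library ranged from 3571570 to 17220157, so that 3 reads, the limit a count of 0 allows, came to between 0.174 and 0.84 CPM by library. This limit covers counting error only. Epcam, a surface protein of epithelium that marks mTECs, stood between 461 and 669 CPM in all 18 libraries. Fezf2 stood at 8.87, 8.19 and 22.7 CPM in the Fezf2 KO libraries, against 638, 718 and 558 CPM in WT. Chd4 stood at 24.6, 27.5 and 30.2 CPM in the cKO, against 55.4, 66.5 and 58.9 CPM in the control. The Aire transcript was higher in the libraries labelled Aire KO, 3839, 4208 and 4113 CPM against 1969, 1842 and 2332 CPM in the WT for Aire, and since the deleted part is unknown here, counts over the whole gene do not check that label. Library B of the WT for Fezf2 stood apart with Chd4 at 125 CPM, where A and C had 40.8 and 42.7 CPM. Counts and directions that change without it are given both ways for the Fezf2 and WT comparisons.

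The core level of a library is the mean of log2(CPM + 0.5) over the 11 core genes. It differed more between the sets of libraries than between most knockouts and their controls. In the Fezf2 KO it was 3.36, 3.7 and 3.84 on the log2 scale, against 5.28, 5.28 and 4.57 in the WT for Fezf2, a difference of -1.41, and the groups did not overlap. Under the Aire KO label it was 2.01, 2.62 and 2.81, against 1.8, 2.45 and 3.23 in the WT for Aire, a difference of -0.01 with overlapping groups. In the Chd4 cKO it was 2.14, 1.92 and 2.24, against 1.87, 2.09 and 2.46 in the Chd4 control, a difference of -0.04, again with overlap. The WT for Fezf2 stood 2.55 above the WT for Aire, although both groups are labelled wild type of one strain and the column names place all 12 libraries in the same sequencing run. Summed over the core, the level averaged 175.7 ± 20.03 CPM in the Fezf2 KO and 508 ± 144 CPM in WT for Fezf2 (SD, n = 3 each). It averaged 81.3 ± 21.5 CPM under the Aire KO label and 85.3 ± 37.7 CPM in WT for Aire (SD, n = 3 each). In a bulk library, fewer thymocytes and less RNA per thymocyte cannot be told apart, and whether the sort, the dissociation or the mice set these levels was not tested. Which cells the core reads came from was not tested either.

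**Figure D1:**
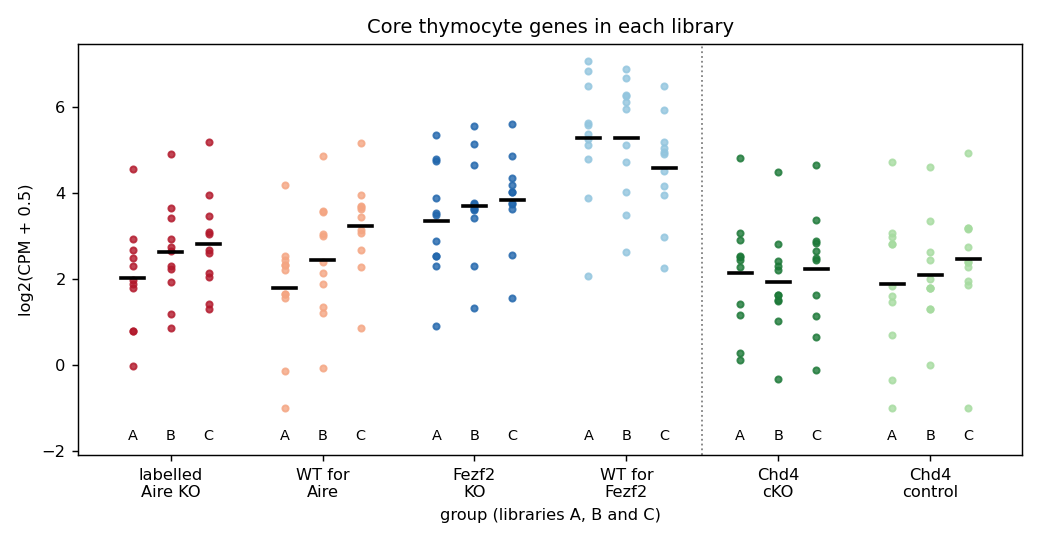
Level of the 11 core thymocyte genes as log2(CPM + 0.5), 1 point a gene, in each library of the 6 groups, with the mean over the core (the core level) as a black bar. The 3 WT for Fezf2 libraries, at 4.57 to 5.28, stand above every other library, and the dotted line marks the Chd4 libraries, which were scaled on their own.

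Fezf2 KO libraries were set against WT for Fezf2, the question being which mTEC transcripts differ without Fezf2. Thymocyte genes were lower there as a group. The 37 were chosen with earlier results of these libraries known, so their shares beside all genes are descriptive and test no enrichment. Of 37 genes tested with edgeR's quasi-likelihood test and Benjamini-Hochberg adjustment over all 15695 genes, 12 fell at an adjusted p under 0.05 (Arpp21, Cd3d, Cd3g, Cd8a, Cd8b1, Coro1a, Dntt, Lat, Lck, Rag2, Satb1 and Trbc2), 32.4% of them against 2.4% of all genes tested. None rose, where 2.48% of all genes rose, also none at an unadjusted p under 0.05 and none by DESeq2. In 29 of the 37 all 3 KO libraries lay below all 3 WT libraries, which held for 13.6% of all genes. With WT library B left aside, Cd5 and Cd6 also lay below the WT in all KO libraries. The share of all genes was not counted without it. The median log2 fold change was -1.17 over the 37 genes and -1.60 over the core, against -0.03 over all genes tested. With all 6 libraries Ets1 alone had a log2 fold change above 0, and without WT library B it was -0.19 for Ets1 and below 0 for all 37. Without WT library A it was above 0 for Cd4 and Ets1, and without WT library C for Ets1 and Ptcra.

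Among the receptor genes, Cd3d, the CD3 delta chain, stood at 5.29, 12.8 and 11.8 CPM in Fezf2 KO libraries, against 34.2, 61.1 and 17.4 CPM in WT for Fezf2 (log2 fold change -1.91 ± 0.47, adjusted p = 0.0461). Cd3g, the CD3 gamma chain, stood at 26.4, 24.4 and 19.8 CPM in Fezf2 KO libraries, against 48.7, 75.2 and 36.1 CPM in WT for Fezf2 (log2 fold change -1.17 ± 0.29, adjusted p = 0.0463). Both lie below the WT in every KO library, and WT library B is the highest for both. Cd3e, the CD3 epsilon chain, did not pass, with 10.8, 11.8 and 15.8 CPM in Fezf2 KO libraries, against 27.03, 25.8 and 22.2 CPM in WT for Fezf2 (log2 fold change -0.96 ± 0.26, adjusted p = 0.0649). Trbc2, a constant region of the receptor beta chain, stood at 43.5, 46.2 and 51.03 CPM in Fezf2 KO libraries, against 173, 273 and 96.8 CPM in WT for Fezf2 (log2 fold change -1.94 ± 0.33, adjusted p = 0.0108), a count that is uncertain because Trbc1 is nearly identical in sequence. The zeta chain gene Cd247 stood at 9.89, 10.99 and 8.47 CPM in Fezf2 KO libraries, against 36.9, 31.98 and 11.6 CPM in WT for Fezf2 (log2 fold change -1.45 ± 0.40, adjusted p = 0.0715). Ptcra, which pairs with the first beta chain of an immature thymocyte, was low throughout, with 5.29, 4.4 and 5.35 CPM in Fezf2 KO libraries, against 3.69, 5.63 and 7.3 CPM in WT for Fezf2 (log2 fold change -0.13 ± 0.42, adjusted p = 0.897), and its groups overlapped.

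The coreceptor genes Cd8b1 and Cd8a fell and Cd4 did not pass. Cd8b1, the CD8 beta chain, stood at 11.1, 12.99 and 17.6 CPM in Fezf2 KO libraries, against 89.3, 77.3 and 32.3 CPM in WT for Fezf2 (log2 fold change -2.25 ± 0.37, adjusted p = 0.0091), which is 4.76-fold lower. Cd8a, the CD8 alpha chain, stood at 14.8, 16.2 and 29.6 CPM in Fezf2 KO libraries, against 85.6, 65.8 and 38.2 CPM in WT for Fezf2 (log2 fold change -1.64 ± 0.35, adjusted p = 0.0293). Cd4 stood at 30.02, 43.96 and 25.2 CPM in Fezf2 KO libraries, against 68.2, 33.8 and 26.2 CPM in WT for Fezf2 (log2 fold change -0.37 ± 0.36, adjusted p = 0.627), so WT library A was high and the other libraries overlapped. Ptprc, the CD45 phosphatase of all white blood cells, stood at 27.97, 27.98 and 29.9 CPM in Fezf2 KO libraries, against 64.5, 46.8 and 44.1 CPM in WT for Fezf2 (log2 fold change -0.85 ± 0.22, adjusted p = 0.0567), without overlap and without passing. Of the remaining surface genes, the costimulatory receptors Cd27 and Cd28 and the adhesion receptor Cd2 had log2 fold changes of -1.28, -0.94 and -1.49, with adjusted p of 0.0895, 0.097 and 0.0936. Cd5 and Cd6, scavenger-receptor family proteins that dampen receptor signals, had -0.39 and -0.44, with adjusted p of 0.573 and 0.43.

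Of the signalling genes, Lck and Lat fell. Lck stood at 40.4, 46.4 and 47.9 CPM in Fezf2 KO libraries, against 133, 117 and 88.4 CPM in WT for Fezf2 (log2 fold change -1.32 ± 0.21, adjusted p = 0.00821), so even the highest KO library lay below the lowest WT library. Lat stood at 14.2, 11.99 and 15.6 CPM in Fezf2 KO libraries, against 37.9, 68.3 and 29.5 CPM in WT for Fezf2 (log2 fold change -1.69 ± 0.32, adjusted p = 0.0172). Themis, a thymocyte protein needed at positive selection, stood at 6.82, 11.6 and 12.9 CPM in Fezf2 KO libraries, against 47.5, 15.6 and 30.2 CPM in WT for Fezf2 (log2 fold change -1.58 ± 0.41, adjusted p = 0.0571), a difference that missed the threshold with groups that did not overlap. The kinase gene Zap70 and the atypical GTPase gene Rhoh had log2 fold changes of -1.57 and -0.97, with adjusted p of 0.128 and 0.115. Sla, an adaptor that limits receptor levels, had -0.76 with an adjusted p of 0.135.

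Of the recombination genes, Dntt and Rag2 fell and Rag1 did not pass. Dntt, the terminal transferase, stood at 26.95, 34.6 and 28.5 CPM in Fezf2 KO libraries, against 114, 101 and 59.9 CPM in WT for Fezf2 (log2 fold change -1.6 ± 0.27, adjusted p = 0.00927). Rag2 stood at 1.37, 2.0 and 2.45 CPM in Fezf2 KO libraries, against 14.3, 10.7 and 4.24 CPM in WT for Fezf2 (log2 fold change -2.33 ± 0.54, adjusted p = 0.037), and its 8, 10 and 11 reads in the KO libraries leave the size of the fold imprecise. Rag1, its partner and neighbour 5752 bases away, stood at 4.44, 10.2 and 13.2 CPM in Fezf2 KO libraries, against 40.6, 34.03 and 15.1 CPM in WT for Fezf2 (log2 fold change -1.7 ± 0.45, adjusted p = 0.0618). All 3 genes were highest in WT library A and lowest in KO library A.

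Among the transcription factors, Satb1 passed the threshold. Satb1, an organiser of thymocyte chromatin, stood at 49.6, 46.8 and 58.4 CPM in Fezf2 KO libraries, against 166, 83.9 and 99.9 CPM in WT for Fezf2 (log2 fold change -1.17 ± 0.27, adjusted p = 0.0354). Bcl11b, which fixes T cell identity, stood at 17.2, 26.6 and 26.96 CPM in Fezf2 KO libraries, against 72.5, 49.6 and 36.99 CPM in WT for Fezf2 (log2 fold change -1.17 ± 0.29, adjusted p = 0.0522), just outside the threshold. Lef1, Gata3, Tcf7 and Ikzf1 had log2 fold changes of -1.2, -0.62, -0.49 and -0.71, with adjusted p of 0.0577, 0.308, 0.228 and 0.238. Ets1 stood at 66.01, 71.1 and 87.6 CPM in Fezf2 KO libraries, against 105, 30.4 and 66.5 CPM in WT for Fezf2 (log2 fold change 0.16 ± 0.36, adjusted p = 0.849), where WT library B was the lowest and WT library A the highest of the 6. Of the rest, Coro1a, an actin regulator of white blood cells, stood at 80.7, 80.1 and 88.3 CPM in Fezf2 KO libraries, against 169, 227 and 132 CPM in WT for Fezf2 (log2 fold change -1.08 ± 0.23, adjusted p = 0.0271). Arpp21, an RNA-binding phosphoprotein, stood at 10.2, 9.39 and 13.4 CPM in Fezf2 KO libraries, against 41.2, 28.9 and 17.4 CPM in WT for Fezf2 (log2 fold change -1.4 ± 0.34, adjusted p = 0.0437). Both fell without overlap. Parvg, an actin-binding parvin of white blood cells, Endou, an endonuclease of the EndoU family, and Tespa1 had log2 fold changes of -0.80, -0.64 and -1.21, with adjusted p of 0.145, 0.232 and 0.472.

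None of the 12 calls held in every refit with 1 library left out. Without any 1 of the Fezf2 KO libraries, 0 of the 37 genes passed, while 169 to 212 of all genes still did, down from 765. Without WT library A, 5 passed (450 of all genes), and without WT library B 21 (2034 of all genes). Without WT library C 16 passed, more than the 12, while the count over all genes fell to 531. Apart from that refit, the members' counts moved in the same direction as those of the whole table. None of the 12 changed direction in any refit, and the core difference stayed between -1.65 and -1.27. With DESeq2, 21 genes passed, among them the same 12, while 1274 of all genes did.

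**Figure D2:**
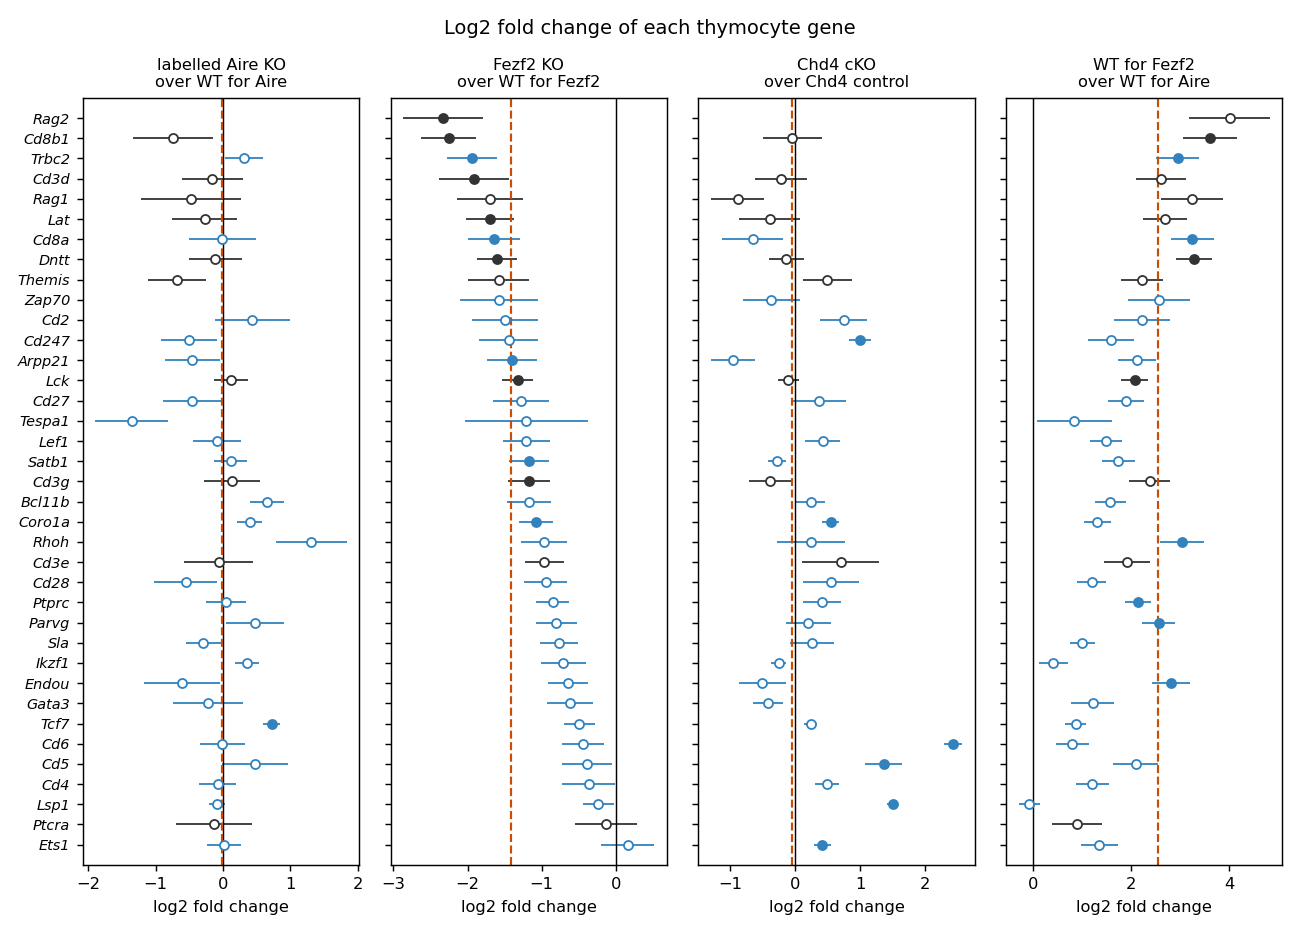
Log2 fold change ± SE of each of the 37 genes (rows, ordered by the Fezf2 comparison) in 4 comparisons, with core genes in black, the others in blue and filled points for an adjusted p under 0.05. The orange dashed line is the difference in core level (-1.41 for Fezf2 and 2.55 for the WT groups), which 20 of 37 genes approach within 0.5 in the Fezf2 panel and 14 of 37 in the WT panel, where 25 lie below it, and a missing point is a gene not tested.

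The WT groups were compared to see how far thymocyte transcripts vary without a knockout. As the 37 were chosen with earlier results of these libraries known, their shares are again descriptive. Here 9 of the 37 genes were higher in WT for Fezf2 than in WT for Aire (Cd8a, Cd8b1, Dntt, Endou, Lck, Parvg, Ptprc, Rhoh and Trbc2), 24.3% against 0.0958% of all genes, so that 9 of the 15 genes higher in the whole table were among the 37. None was lower, where 0.0319% of all genes, 5 in number, were lower; none was lower at an unadjusted p under 0.05 in edgeR or by DESeq2. In 31 of 37 the groups did not overlap, which held for 10.4% of all genes. With library B of the WT for Fezf2 left aside, the groups did not overlap for Cd6 either. The median log2 fold change was 2.07 over the 37 genes and 2.61 over the core, against 0.03 over all genes.

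Dntt stood at 114, 101 and 59.9 CPM in WT for Fezf2, against 4.91, 11.2 and 12.3 CPM in WT for Aire (log2 fold change 3.28 ± 0.37, adjusted p = 0.0317), a 9.74-fold difference. Cd8b1 stood at 89.3, 77.3 and 32.3 CPM in WT for Fezf2, against 4.09, 1.83 and 10.3 CPM in WT for Aire (log2 fold change 3.61 ± 0.55, adjusted p = 0.0467). Lck stood at 133, 117 and 88.4 CPM in WT for Fezf2, against 17.6, 28.3 and 34.99 CPM in WT for Aire (log2 fold change 2.07 ± 0.28, adjusted p = 0.0406). In each of these the lowest library of the WT for Fezf2 lay well above the highest of the WT for Aire. Ptprc stood at 64.5, 46.8 and 44.1 CPM in WT for Fezf2, against 11.7, 9.36 and 14.4 CPM in WT for Aire (log2 fold change 2.13 ± 0.27, adjusted p = 0.0406). Rhoh, Cd8a and Trbc2 had log2 fold changes of 3.04, 3.25 and 2.95, Endou and Parvg 2.81 and 2.57, with adjusted p between 0.0406 and 0.0467. At the other end Lsp1 stood at 337, 409.8 and 267 CPM in WT for Fezf2, against 317, 339.8 and 418 CPM in WT for Aire (log2 fold change -0.08 ± 0.22, adjusted p = 0.904).

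This comparison shares the 3 WT for Fezf2 libraries with the Fezf2 comparison, so the pair are no independent measurements. Side by side, Dntt averaged 30.01 CPM in the Fezf2 KO, 91.7 CPM in WT for Fezf2 and 9.45 CPM in WT for Aire. Lck averaged 44.9 CPM in the Fezf2 KO, 113 CPM in WT for Fezf2 and 26.96 CPM in WT for Aire. The core level of the Fezf2 KO libraries, 3.36 to 3.84, lay above that of all 3 WT for Aire libraries, 1.8 to 3.23. The number of calls turned on single libraries over the whole table: 0 of the 37 passed without library A of the WT for Fezf2 or without any 1 library of the WT for Aire, when 0 to 4 of all genes did, and 28 passed without library B of the WT for Fezf2, when 636 of all genes did. The median log2 fold change of the 37 stayed between 1.8 and 2.16 in these refits. The core difference stayed between 2.2 and 2.92.

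Under the Aire KO label, 1 of 35 genes tested rose and none fell, against 5.73% of all genes higher and 9.37% lower. With edgeR, 1 gene was lower at an unadjusted p under 0.05 (Tespa1), and with DESeq2 none was lower after adjustment. The gene that rose was Tcf7, which stood at 213, 251 and 252 CPM under the Aire KO label, against 139, 125 and 164 CPM in WT for Aire (log2 fold change 0.72 ± 0.13, adjusted p = 0.00162). Every library of the first group was above every library of the second, and the call held under all 9 alternatives. The core genes did not move with it: Lck stood at 22.99, 29.6 and 36.01 CPM under the Aire KO label, against 17.6, 28.3 and 34.99 CPM in WT for Aire (log2 fold change 0.11 ± 0.25, adjusted p = 0.829), and Dntt at 5.87, 10.2 and 10.5 CPM under the Aire KO label, against 4.91, 11.2 and 12.3 CPM in WT for Aire (log2 fold change -0.11 ± 0.39, adjusted p = 0.897). The median log2 fold change was -0.08 over the genes tested and -0.15 over the core, with -0.00 over all genes. Bcl11b, Rhoh, Ikzf1 and Parvg also had groups that did not overlap, at higher levels, without passing, and Cd27 and Tespa1 at lower levels. With Tcf7 that is 5 of 35 higher and 2 of 35 lower, where 16.3% of all genes were so in each direction. These shares lie at or under that of the whole table. Rag2 and Zap70 had too few reads to be tested there. Tcf7 is also made outside the T lineage, and which cells its reads came from was not tested.

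The Fezf2 and Aire effects share no library, and their difference was tested as an interaction contrast over the 12 libraries. The shares of the 37 are descriptive here too, given how the genes were chosen. For 8 of 37 genes the Fezf2 effect was lower than the Aire effect (Bcl11b, Coro1a, Dntt, Lck, Rhoh, Satb1, Tcf7 and Trbc2), 21.6% against 3.85% of all genes. None differed the other way, where 8.73% of all genes did, and none did so at an unadjusted p under 0.05 or by DESeq2. For Trbc2 the difference of the log2 fold changes was -2.28 ± 0.47 (adjusted p = 0.00376), for Lck -1.46 ± 0.34 (adjusted p = 0.00945) and for Bcl11b -1.84 ± 0.41 (adjusted p = 0.00661). Tcf7 had -1.24 ± 0.25 (adjusted p = 0.00305), made of a rise in the libraries labelled Aire KO and a log2 fold change of -0.49 in the Fezf2 KO. Bcl11b stood at 22.3, 32.7 and 30.2 CPM under the Aire KO label, against 21.9, 11.9 and 19.7 CPM in WT for Aire, beside the Fezf2 values given above.

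The genes were then sorted by whether they follow the core level over the 12 Aire and Fezf2 libraries. A gene was said to follow where the SD of its log2 level relative to the core, with the gene itself left out of the core, was smaller than the SD of its log2 level. The rule asks how steeply a gene rises with the core, so a gene can rise with the core and still not follow. By this rule 26 of 37 followed, 10 of the 11 core genes and 16 of the 26 others, while 8.48% of 16256 genes with enough reads did. This is a description, and the choice of the members rested on earlier results of these libraries. Cd8a, which is no core gene, followed closely: its SD was 1.5 log2 units over the 12 libraries and 0.41 relative to the core. Trbc2 had an SD of 1.24 and 0.36 relative to the core, Lat 1.28 and 0.37, and Dntt 1.48 and 0.43. Weak followers were Lef1 (0.75 and 0.59), Cd28 (0.79 and 0.65), Gata3 (0.84 and 0.72) and Cd5 (0.91 and 0.81), the last of these just inside the rule, with Ets1 (0.84 and 0.88) just outside.

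**Figure D3:**
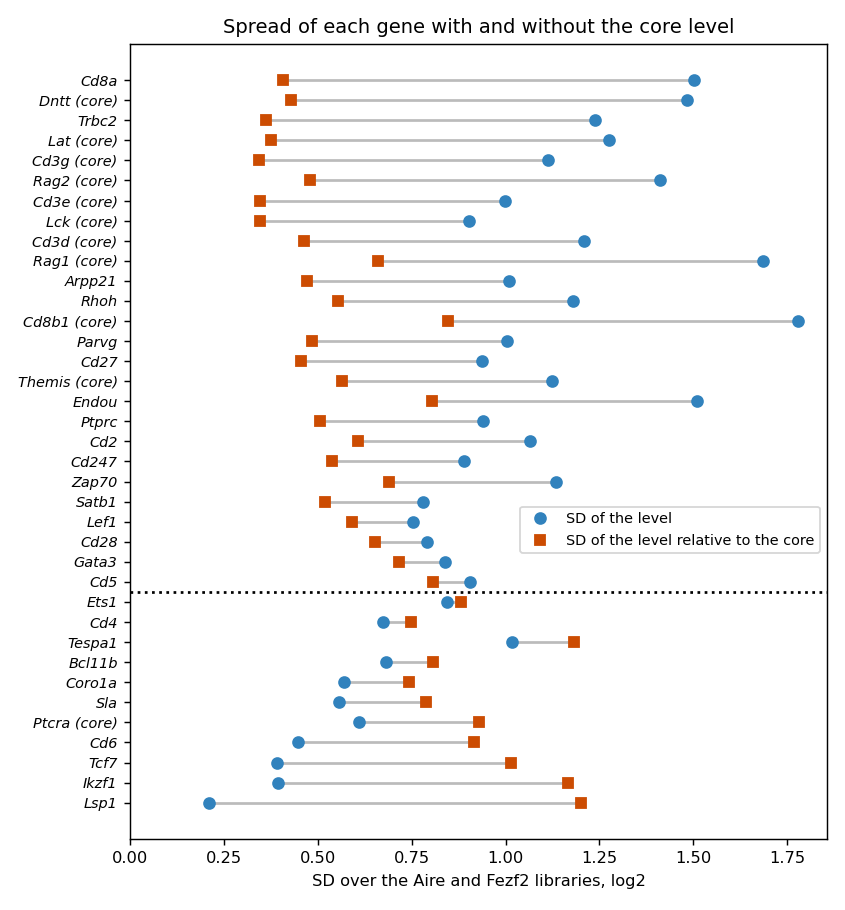
SD over the 12 Aire and Fezf2 libraries of each gene's log2(CPM + 0.5) (blue circle) and of the same level relative to the core (orange square), ordered by their ratio. Genes above the dotted line, from Cd8a (1.5 and 0.41) to Cd5 (0.91 and 0.81), vary less once the core level is taken off, and the 11 genes below it, down to Lsp1 (0.21 and 1.2), vary more.

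The 11 that did not follow were Ets1, Cd4, Tespa1, Bcl11b, Coro1a, Sla, Ptcra, Cd6, Tcf7, Ikzf1 and Lsp1. Not following does not make them independent of the core level. The slope of the log2 level on the core level was 0.48 for Ets1, 0.46 for Cd4, 0.43 for Bcl11b and 0.42 for Coro1a. It was 0.18 for Tcf7, 0.06 for Ikzf1 and -0.01 for Lsp1, with the others between Coro1a and Tcf7. Without WT for Fezf2 library B, Ets1 (SD 0.87, and 0.52 relative to the core) and Cd4 (0.69 and 0.62) followed as well, which makes 28 of 37. Lsp1, an actin-binding protein of white blood cells, was the flattest, with an SD of 0.21 over the 12 libraries: it stood at 312, 278 and 268 CPM in Fezf2 KO libraries, against 337, 409.8 and 267 CPM in WT for Fezf2 (log2 fold change -0.23 ± 0.21, adjusted p = 0.589) and at 364, 332 and 328 CPM under the Aire KO label, against 317, 339.8 and 418 CPM in WT for Aire (log2 fold change -0.09 ± 0.12, adjusted p = 0.693). Ikzf1, the Ikaros factor of blood cell development, stood at 17.1, 24.6 and 21.4 CPM in Fezf2 KO libraries, against 24.99, 50.1 and 28.3 CPM in WT for Fezf2, and at 31.8, 35.7 and 33.8 CPM under the Aire KO label, against 23.9, 23.96 and 29.96 CPM in WT for Aire. Ikzf1 was lower in every Fezf2 KO library than in WT for Fezf2, as the core was, while its WT for Fezf2 and WT for Aire libraries overlapped. Tcf7 stood at 199.6, 192 and 161 CPM in Fezf2 KO libraries, against 316, 243 and 222 CPM in WT for Fezf2, with the values for Aire given above. Cd6 stood at 13.5, 15.99 and 13.6 CPM in Fezf2 KO libraries, against 25.4, 15.1 and 18.1 CPM in WT for Fezf2, and at 9.79, 15 and 9.25 CPM under the Aire KO label, against 9.41, 15.8 and 8.75 CPM in WT for Aire.

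The others lay between these and the core. Coro1a, which fell in the Fezf2 KO, stood at 81.2, 91.3 and 111 CPM under the Aire KO label, against 57.7, 62.1 and 93.2 CPM in WT for Aire (log2 fold change 0.39 ± 0.18, adjusted p = 0.178). Sla stood at 22, 25.8 and 18.7 CPM in Fezf2 KO libraries, against 47.3, 38.4 and 27.8 CPM in WT for Fezf2, and at 18.1, 18.3 and 10.5 CPM under the Aire KO label, against 16.8, 19.9 and 20.1 CPM in WT for Aire. Tespa1, a signalling protein of thymocyte selection, was under 12 CPM in every library, with 1.71, 4.6 and 1.56 CPM in Fezf2 KO libraries, against 11.1, 6.65 and 0.471 CPM in WT for Fezf2, and with 0.979, 1.32 and 1.7 CPM under the Aire KO label, against 2.66, 4.11 and 3.5 CPM in WT for Aire. Both Sla and Tespa1 were highest in a WT for Fezf2 library, and Tespa1 was also lowest in one. Cd4 stood at 11.3, 17.9 and 24.3 CPM under the Aire KO label, against 16.99, 20.3 and 18.4 CPM in WT for Aire. Ets1 stood at 19.3, 38.8 and 22.4 CPM under the Aire KO label, against 22.9, 27.2 and 29.1 CPM in WT for Aire, and Ptcra at 1.22, 3.31 and 3.65 CPM under the Aire KO label, against 2.46, 2.05 and 4.37 CPM in WT for Aire. Per kilobase of exon, which allows genes to be compared, Trbc2 averaged 67.8 CPM in the Fezf2 KO and 261 CPM in the WT for Fezf2, Tcf7 70.2 and 99.1 CPM, Lsp1 55.3 and 65.3 CPM, Coro1a 29.8 and 63.2 CPM, and Lck 15.3 and 38.5 CPM, in the same order of groups. Tcf7 and Lsp1, among the steadiest, stood above every core gene per length in the Fezf2 KO. Counting error of low genes adds to both SDs, and its part was not tested.

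**Figure D4:**
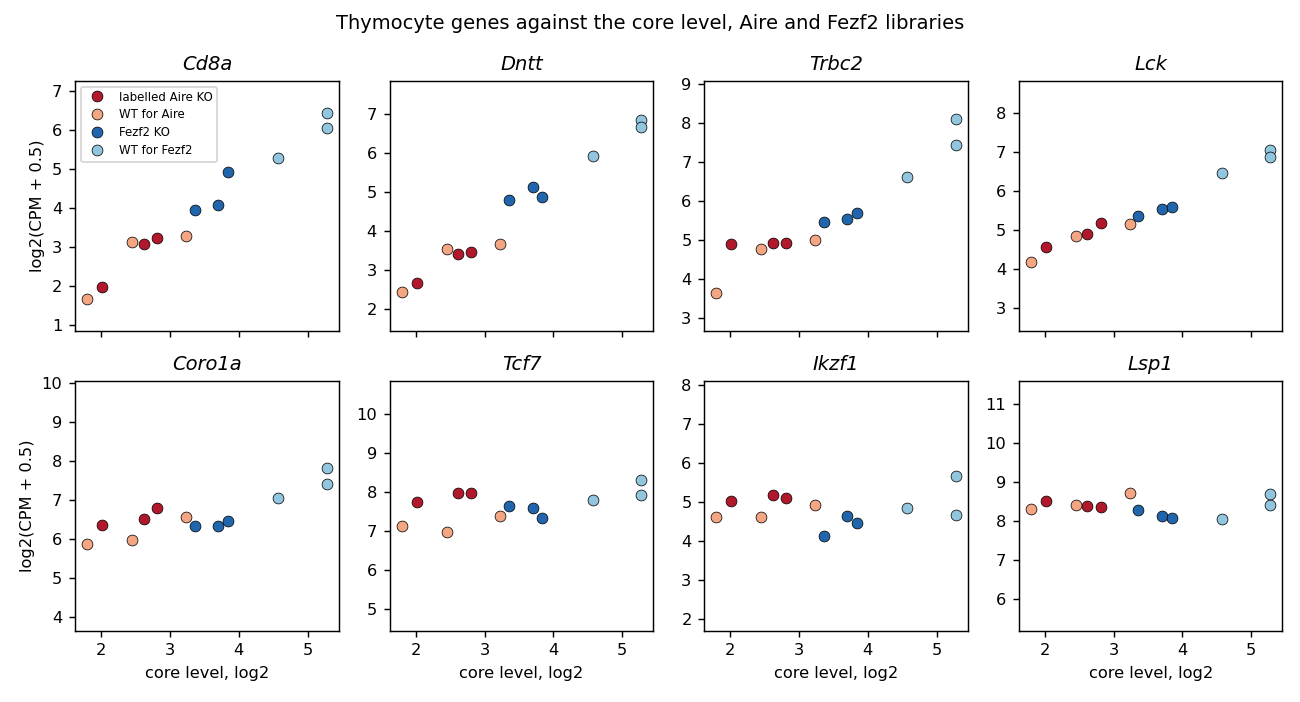
Log2(CPM + 0.5) of 8 genes against the core level of the same library, for the 12 Aire and Fezf2 libraries, with 1 point a library and the same span on every y axis. Cd8a, Dntt, Trbc2 and Lck climb with the core level from 1.8 to 5.28, Coro1a climbs less, Tcf7 (125 to 316 CPM) and Ikzf1 (17.1 to 50.1 CPM) vary without following it, and Lsp1 stays nearly level (267 to 418 CPM).

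The Chd4 comparison asks what mTECs express without Chd4, a helicase of the NuRD chromatin remodeller, and there a small set of the genes rose while the core did not. Of 33 genes tested, 6 rose (Cd247, Cd5, Cd6, Coro1a, Ets1 and Lsp1), 18.2% against 14.3% of all genes, and none fell, where 14.3% of all genes fell. The count of 6 is thus near the share of the whole table. With edgeR, 2 genes were lower at an unadjusted p under 0.05 (Arpp21 and Ikzf1), and by DESeq2 none was lower after adjustment. In 7 of 33 the cKO libraries all lay above the control, which held for 22.1% of all genes. In 4 of 33 (Rag1, Satb1, Arpp21 and Ikzf1) they all lay below it, 12.1% against 22.1% of all genes. The median log2 fold change was 0.24 over the genes tested and -0.13 over the core, with 0.00 over all genes.

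Cd6 stood at 80.7, 77.8 and 67.9 CPM in Chd4 cKO libraries, against 15.2, 14.8 and 12.2 CPM in Chd4 controls (log2 fold change 2.43 ± 0.14, adjusted p = 4.17e-06), a 5.38-fold rise with no library near the other group. Its neighbour Cd5, 50366 bases away on chromosome 19, stood at 12.9, 10.3 and 8.99 CPM in Chd4 cKO libraries, against 5.06, 3.71 and 3.83 CPM in Chd4 controls (log2 fold change 1.36 ± 0.29, adjusted p = 0.00543). Lsp1 stood at 493, 553 and 523 CPM in Chd4 cKO libraries, against 184, 187 and 183 CPM in Chd4 controls (log2 fold change 1.5 ± 0.08, adjusted p = 3.49e-06), again with tight groups far apart. Cd247 stood at 21.1, 22.2 and 24.2 CPM in Chd4 cKO libraries, against 11.8, 10.9 and 11.01 CPM in Chd4 controls (log2 fold change 1.0 ± 0.17, adjusted p = 0.00191), while its partners in the receptor complex did not pass, with log2 fold changes of -0.21 for Cd3d, 0.70 for Cd3e and -0.38 for Cd3g. Coro1a stood at 111, 127 and 97.2 CPM in Chd4 cKO libraries, against 86.4, 77.4 and 67 CPM in Chd4 controls (log2 fold change 0.55 ± 0.13, adjusted p = 0.00951). Ets1 stood at 34.4, 34.8 and 35.8 CPM in Chd4 cKO libraries, against 27.01, 25.97 and 25.4 CPM in Chd4 controls (log2 fold change 0.42 ± 0.13, adjusted p = 0.0301). The first 5 held under all 9 alternatives, and Ets1 lost its call in 8 of 9, with adjusted p up to 0.0797.

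Of the core genes tested, the Chd4 groups overlapped for all but Rag1, and none passed. Lck stood at 27.8, 21.8 and 24.4 CPM in Chd4 cKO libraries, against 25.6, 23.8 and 29.9 CPM in Chd4 controls (log2 fold change -0.11 ± 0.16, adjusted p = 0.655). Dntt stood at 7.91, 6.56 and 9.85 CPM in Chd4 cKO libraries, against 7.88, 9.65 and 8.61 CPM in Chd4 controls (log2 fold change -0.13 ± 0.26, adjusted p = 0.743). Cd8b1 stood at 5.18, 2.34 and 4.93 CPM in Chd4 cKO libraries, against 2.25, 5.69 and 4.31 CPM in Chd4 controls (log2 fold change -0.04 ± 0.45, adjusted p = 0.955), so all 3 of these overlapped. Themis stood at 7.04, 4.8 and 5.78 CPM in Chd4 cKO libraries, against 3.1, 2.97 and 6.22 CPM in Chd4 controls (log2 fold change 0.50 ± 0.38, adjusted p = 0.361). Lat had 2.16, 2.58 and 5.14 CPM in Chd4 cKO libraries, against 6.47, 2.97 and 3.11 CPM in Chd4 controls, and Cd3d had 4.89, 4.39 and 6.64 CPM in Chd4 cKO libraries, against 6.47, 2.97 and 8.61 CPM in Chd4 controls. Cd3g had 5.32, 4.1 and 6.85 CPM in Chd4 cKO libraries, against 7.32, 4.95 and 8.38 CPM in Chd4 controls, and Cd3e had 4.31, 2.58 and 2.57 CPM in Chd4 cKO libraries, against 0.281, 1.98 and 3.35 CPM in Chd4 controls. All 4 of these were low in both groups. Rag1 had 1.73, 2.29 and 1.71 CPM in Chd4 cKO libraries, against 2.53, 3.46 and 4.79 CPM in Chd4 controls, lower in every cKO library, with an adjusted p of 0.132. Rag2, Ptcra and Tespa1 were not tested for want of reads. Rag2 had 0.575, 0.293 and 1.07 CPM in Chd4 cKO libraries, against 0, 0.495 and 0 CPM in Chd4 controls. Ptcra had 0.719, 1.52 and 0.428 CPM in Chd4 cKO libraries, against 1.13, 1.98 and 4.79 CPM in Chd4 controls. Outside the core, Cd4 was higher in every cKO library without passing, and the groups overlapped for Ptprc and Cd8a. Ptprc stood at 15.2, 13 and 9.85 CPM in Chd4 cKO libraries, against 12.1, 5.69 and 11.3 CPM in Chd4 controls (log2 fold change 0.41 ± 0.29, adjusted p = 0.331). Cd4 stood at 35.8, 30.1 and 41.8 CPM in Chd4 cKO libraries, against 28.98, 20.04 and 27.04 CPM in Chd4 controls (log2 fold change 0.49 ± 0.18, adjusted p = 0.0645). Cd8a stood at 6.18, 1.7 and 3.21 CPM in Chd4 cKO libraries, against 5.63, 5.69 and 5.5 CPM in Chd4 controls (log2 fold change -0.65 ± 0.47, adjusted p = 0.332). Tcf7 stood at 133, 138 and 123 CPM in Chd4 cKO libraries, against 107, 124 and 103 CPM in Chd4 controls and Ikzf1 at 37.95, 38.9 and 37.04 CPM in Chd4 cKO libraries, against 46.98, 43.3 and 45.7 CPM in Chd4 controls, with adjusted p of 0.107 and 0.118. The remaining genes ran from Arpp21, with a log2 fold change of -0.96 (adjusted p = 0.0573), to Cd2, with 0.75 (adjusted p = 0.148), and none of them passed. The core level spanned only 1.87 to 2.46 over these 6 libraries, so it gave little to follow: 12 of 36 genes followed by the rule, against 17.5% of 15182 genes. Without control library C, 16 followed, of which 6 were among those 12.

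**Figure D5:**
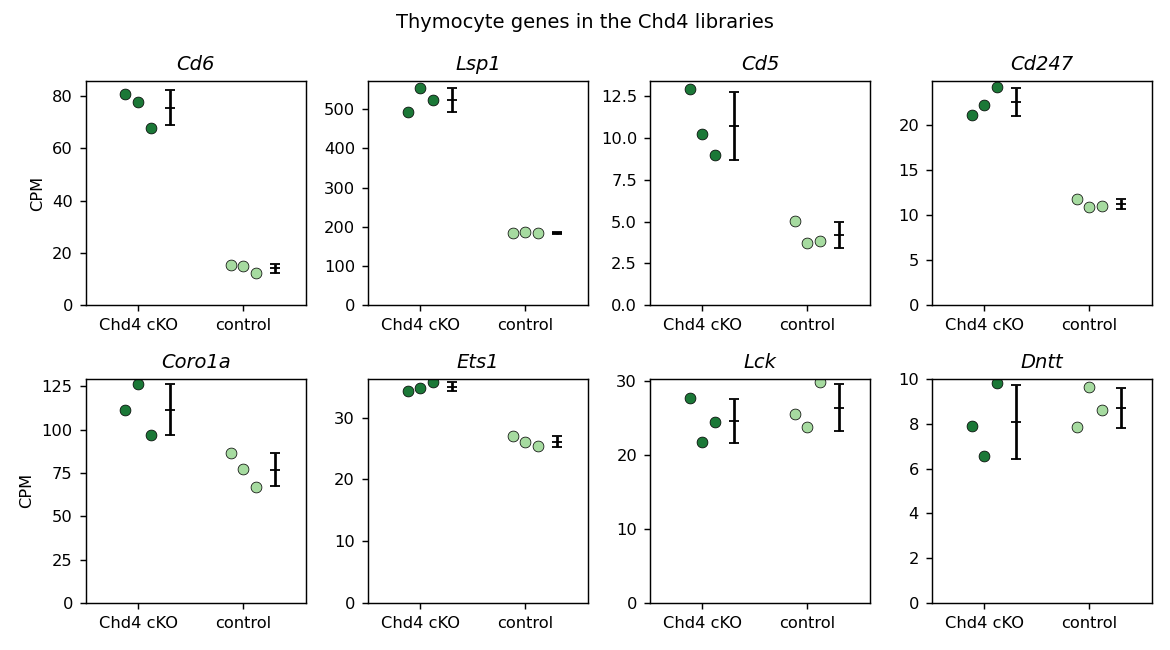
CPM of 6 thymocyte genes that passed in the Chd4 comparison and of the core genes Lck and Dntt, 1 point a library with mean ± SD beside (n = 3 each), in the Chd4 cKO (left) and its control (right), each axis from 0. Cd6 and Lsp1 lie far apart between the groups, at 67.9 to 80.7 against 12.2 to 15.2 CPM for Cd6, while Lck and Dntt overlap.

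Further T lineage genes, from lists chosen with earlier results of these data known, were read in the same fits. Of 15 other T cell receptor signalling genes tested in the Fezf2 comparison, 2 fell and 1 rose, where 2.4% of all genes fell and 2.48% rose, with a median of -0.67. Skap1, an adhesion adaptor, stood at 10.8, 11.99 and 14.7 CPM in Fezf2 KO, against 29.3, 29.2 and 30.2 CPM in WT for Fezf2 (log2 fold change -1.24 ± 0.24, adjusted p = 0.0178). Ptpn22, a phosphatase that restrains Lck, stood at 39.2, 49.4 and 47.7 CPM in Fezf2 KO, against 99.7, 90.1 and 80.1 CPM in WT for Fezf2 (log2 fold change -0.98 ± 0.20, adjusted p = 0.0223). Fyn, a kinase related to Lck, rose, with 53.6, 53.8 and 53.7 CPM in Fezf2 KO, against 31.3, 24.8 and 31.1 CPM in WT for Fezf2 (log2 fold change 0.89 ± 0.20, adjusted p = 0.0343). Of 18 other thymocyte development genes, Trbc1 fell, with the same doubt as Trbc2, at 18.8, 27.98 and 29.9 CPM in Fezf2 KO, against 66.97, 159 and 46.4 CPM in WT for Fezf2 (log2 fold change -1.82 ± 0.42, adjusted p = 0.036), and the median was -0.53. In the WT comparison none of 14 and 18 tested genes of these lists passed, where 0.0958% of all genes were higher and 0.0319% lower, with medians of 0.94 and 0.51. At an unadjusted p under 0.05 in edgeR, 8 of the 14 and 6 of the 18 were higher and none was lower. DESeq2 called 2 and 3 of these lists higher and none lower.

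In the Chd4 comparison 3 of 11 signalling genes rose (Fyn, Plcg1 and Ptpn22) and none fell, and 10 of 15 development genes rose, among them Hes1, Myb, Notch1, Notch3, Nr4a1, Tcf12, Tcf3, Tox and Zbtb7b, and none fell, against 14.3% of all genes in each direction. Notch1, named here after its values were seen, is the receptor that commits progenitors to the T lineage and also acts in epithelium. It stood at 74.8, 84.1 and 89.9 CPM in the cKO, against 37.98, 50.5 and 50.7 CPM in the control (log2 fold change 0.83 ± 0.13, adjusted p = 0.00124). S1pr1, the receptor by which mature T cells leave the thymus, rose in all 3 knockouts. It stood at 134, 135 and 161 CPM in the Chd4 cKO, against 52.6, 53.2 and 50.7 CPM in the control (log2 fold change 1.46 ± 0.11, adjusted p = 1.27e-05). It stood at 120.1, 105 and 109.9 CPM in Fezf2 KO, against 57.96, 49.1 and 59.1 CPM in WT for Fezf2 (log2 fold change 1.02 ± 0.19, adjusted p = 0.0138), the opposite direction to the core. Under the Aire KO label it stood at 59.7, 84.7 and 118 CPM, against 52.4, 40.2 and 46.1 CPM in WT for Aire (log2 fold change 0.90 ± 0.21, adjusted p = 0.0106). S1pr1 is also a gene of blood vessels.

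Markers of other cells that a sort could carry did not pass in the Fezf2 comparison, which makes 0 of 7 B cell genes, 0 of 5 dendritic cell genes, 0 of 6 macrophage and monocyte genes, 0 of 2 NK and innate lymphoid genes, 0 of 5 erythroid genes and 0 of 6 endothelial and fibroblast genes tested with edgeR. At an unadjusted p under 0.05, 2, 1, 1, 1, 0 and 1 of them were lower and 0, 0, 1, 0, 0 and 1 higher, and DESeq2 called 1, 1, 0, 1, 0 and 0 lower and 0, 0, 0, 0, 0 and 2 higher. Of all genes tested with edgeR in that comparison, 2.4% fell and 2.48% rose. Counts of 0 in lists this short are thus near the share of the whole table. The summed level of the 8 listed B cell genes was 57.4 to 71.3 CPM in the Fezf2 KO and 74.6 to 109 CPM in the WT for Fezf2. That of the 8 macrophage and monocyte genes, most of it Lyz2, was 661 to 963 CPM in the KO and 977 to 1304 CPM in the WT. The NK genes summed to 10.5 to 15.2 CPM in the KO and 18.4 to 30.2 CPM in the WT, with Ncr1 at 0 in all libraries labelled Aire KO, the WT for Aire and both Chd4 groups. The 8 dendritic cell genes summed to 62.3 to 63.6 CPM in the KO and 62.7 to 75.4 CPM in the WT. Of the 5 tested, Flt3, Itgax and Batf3 had log2 fold changes of -1.35, -1.27 and -0.88, and Xcr1 and Zbtb46 0.13 and 0.46. Of the 12 mTEC genes, Fezf2 itself fell and Krt5, a keratin, rose, with 812, 1011 and 1344 CPM in the KO, against 325, 419 and 373 CPM in the WT for Fezf2. In the Chd4 comparison 3 of 6 macrophage genes fell (Adgre1, C1qb and Lyz2) and Cd68 rose, where 14.3% of all genes did in each direction, the list summing to 613 to 788 CPM in the cKO and 1097 to 1312 CPM in the control. Of 5 erythroid genes 3 fell and none rose, with sums of 61.5 to 115 CPM in the cKO and 122.5 to 202.1 CPM in the control. Of 8 B cell genes 1 fell and 1 rose, and of 4 NK genes 1 fell and 1 rose. Of 5 dendritic cell genes 1 fell, as did 1 of 5 endothelial and fibroblast genes, and none of these rose. In the libraries labelled Aire KO 4 of 6 macrophage genes fell (Adgre1, C1qa, C1qb and Csf1r) and Cd68 rose, where 9.37% of all genes fell and 5.73% rose. That list summed to 1092 to 1748 CPM there and 1034 to 1269 CPM in the WT for Aire, with overlap. Under the same label 3 of 6 endothelial and fibroblast genes fell and 2 rose. Of 5 erythroid genes 2 rose, of 3 dendritic cell genes 2 and of 7 B cell genes 1, and none of these fell. The 1 NK gene tested did not pass. The part of these cells in the thymocyte genes was not tested.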

How the data were processed

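RNA of sorted mTECs was extracted and made into libraries with a SMART-seq v4 kit, per the labels' protocols. The authors deposited counts of total exon reads per gene and library, per the file headers, which name trimmed single reads and Ion Torrent barcodes. Exon length was taken from the same tables. DESeq2, mm10 and GRCm38 are named in the submitters' processing notes. How reads were aligned and whether strand was used are points not given in the sources used here. In all 216 further per-library columns were not used.

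Total exon reads of each 6-library comparison were fitted on the whole table with edgeR 4.0.16 in R 4.3.3 (TMM, filterByExpr, quasi-likelihood F test, Benjamini-Hochberg adjustment over all genes, threshold 0.05). The interaction was fitted over 12 libraries. DESeq2 1.42.0, other scalings and left-out libraries were the alternatives. SE was taken as the size of the log2 fold change over the root of F. Scripts were tested on simulated data. Depth was 3571570 to 17220157 exon reads a library. The pseudocount was 0.5 CPM. The members, the core and the lists were chosen with earlier results of these data known. Values in every library are given for core genes, for genes past the threshold, for genes that do not follow the core and for Ptprc, Cd4, Cd8a and Trbc2.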

Additional observations from a re-analysis of the deposited data

Results flagged for a closer look

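For 8 of the 37 genes the effect of the Fezf2 KO differed from that of the libraries labelled Aire KO in an edgeR interaction contrast over 12 libraries. The difference, the Fezf2 log2 fold change minus the Aire log2 fold change, was below 0 in each: Tcf7 (-1.24, adjusted p = 0.00305), Trbc2 (-2.28, adjusted p = 0.00376), Coro1a (-1.5, adjusted p = 0.00405), Bcl11b (-1.84, adjusted p = 0.00661), Lck (-1.46, adjusted p = 0.00945), Rhoh (-2.31, adjusted p = 0.0124), Satb1 (-1.31, adjusted p = 0.034) and Dntt (-1.52, adjusted p = 0.0376). Bcl11b, Coro1a, Lck, Rhoh, Tcf7 and Trbc2 passed in all 15 alternatives. Dntt and Satb1 were lost in 8 of 15 each, in all of them with 1 library left out. Over all genes, 3.85% had a difference below 0 and 8.73% above 0 at an adjusted p under 0.05. The 37 were chosen with earlier results of these libraries known, so the 21.6% among them is descriptive.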

How the results depend on the processing

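The Fezf2 count of 12 lower genes became 21 with DESeq2, 20 with no filter on low counts and 0 to 21 with 1 library left out. Calls over all genes, in both directions, went from 765 to 1274, 1387 and 169 to 2034 in the same order. The WT count of 9 higher genes became 28 with DESeq2, 5 with upper-quartile normalization, 29 with no filter and 0 to 28 with 1 library left out. Here the calls over all genes went from 20 to 383, 8, 455 and 0 to 636. The 8 interaction calls became 16 with no filter and 6 to 13 with 1 library left out, when those over all genes went from 2080 to 2742 and 1521 to 2769. In the libraries labelled Aire KO the count of 1 higher gene became 3 with no filter (Bcl11b and Coro1a added) and 1 to 3 with 1 library left out. Over all genes, the calls under that label went from 2257 to 3466 and 1687 to 2356. In the Chd4 comparison the count of 0 lower genes became 1 with upper-quartile normalization (Arpp21) and 0 to 1 with 1 library left out. Over all genes, the Chd4 calls went from 4339 to 4363 and 3229 to 3963. The cause of these shifts was not tested, beyond the fewer samples in the refits that leave out a library. The count of 6 higher Chd4 genes stayed between 5 and 7. No named call reversed its direction in any alternative.

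The core differences moved by less than the SD between replicates under the other core definitions, scalings and pseudocount, the core without Rag2 and Ptcra included, which was chosen after seeing the data. With 1 library left out they ran from -1.65 to -1.27 for Fezf2, -0.36 to 0.36 for Aire, -0.18 to 0.12 for Chd4 and 2.2 to 2.92 for the WT groups, so Aire and Chd4 have no fixed sign. The 26 genes that follow the core became 24 to 28 with 1 library left out, and the 12 in the Chd4 libraries 10 to 16. Unique exon reads were planned in place of total exon reads and were not run, since only 1 measure per library was mapped. No paired analysis was possible because the columns carry a barcode and no replicate number. Core genes rest on 224 to 2881 exon reads in all per library, which limits Rag2 and Ptcra most.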
